A study of Mus musculus with 23 samples.

Results

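Skeletal muscle takes up fatty acids from the blood, draws others from its own triglyceride stores, and burns both in its mitochondria. The 34 genes described here carry out these steps. They were listed by name and matched by symbol to the 55573 Ensembl gene IDs of the count table. All 34 were found, and all 34 were among the 13049 genes that passed the filter on low counts. They comprise 4 uptake genes, 2 lipases, 5 acyl-CoA synthetases, 5 genes of the carnitine shuttle, 7 of the acyl-CoA dehydrogenase and electron transfer step, 5 of the later steps of the beta-oxidation spiral, 3 for unsaturated fatty acids and 3 thioesterases. The question asked of them was whether excess corticosterone, the main glucocorticoid of rodents, changed their mRNA in quadriceps, and whether males and females differed.

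The quadriceps came from C57Bl6 mice (C57BL/6J in the methods) aged 8 to 10 weeks that carried a slow-release pellet under the skin of the neck for 14 days and were fasted for 5 hours before they were killed. The corticosterone pellet held 50 mg corticosterone and 50 mg cholesterol, and the vehicle pellet held 100 mg cholesterol, so that all mice received cholesterol. Vehicle was given to 6 males and 6 females, and corticosterone to 6 males and 5 females of those analysed here. A mouse is called F or M for female or male, followed by its number, which is odd for vehicle and even for corticosterone.

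At the outer membrane of a muscle fiber, CD36 and the fatty acid transport proteins bring fatty acids in, and acyl-CoA synthetases join them to coenzyme A. Lipases release fatty acids from lipid droplets inside the fiber, and also from the fat cells that lie between fibers. The carnitine shuttle carries the activated fatty acids through the mitochondrial membranes, where repeated rounds of oxidation, hydration, a further oxidation and thiolysis shorten them, and the electrons pass on through the electron transfer flavoprotein. Glucocorticoids are known for promoting lipolysis in fat tissue and fuel use in muscle during fasting.

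Each mouse had between 20904150 and 21984477 counts on genes, so that depth hardly differed. The TMM normalization factors, which adjust for composition, ran from 0.832 to 1.21. They were lowest in the corticosterone-treated males M4 (0.832) and M2 (0.852). They were highest in the corticosterone-treated females F10 (1.21) and F6 (1.15). Summed markers of muscle fibers stood at 67171 to 194899 CPM (counts scaled for depth and by these factors) in every mouse, which fits the labelled tissue. Summed markers of hepatocytes were 2994 CPM in M8, 3089 in F10, 2204 in F6, 1755 in M9 and 1749 in M12, and 54.6 to 460 CPM in the other 18 mice. Results that depend on M8 and F10 are also given without them, and, as a choice made after seeing the data, without all 5 of these mice. Without the 5, Pnpla2, Acads and Hadh in males and Pnpla2 and Cd36 in females were still called (edgeR adjusted p of 0.00109 to 0.00899). It is not stated whether the samples of both sexes were handled together, so sex and batch cannot be told apart in any comparison of males with females. In such bulk samples, fewer cells of a type and less RNA per cell cannot be told apart.

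Expressed per length of transcript (RPKM), the 34 genes spanned a wide range in the vehicle-treated mice. Fabp3, the cytosolic fatty acid binding protein of heart and muscle, was the most abundant, with a mean of 583.5 RPKM. Acadvl, the very-long-chain acyl-CoA dehydrogenase, had 116.5 RPKM, Cd36 had 99.3 RPKM and Pnpla2, the adipose triglyceride lipase, had 88.6 RPKM. At the low end stood Acsl5 with 2.11 RPKM, Cpt1b with 1.60 RPKM and Acot1 with 0.661 RPKM. The values of Cpt1b, the muscle form of carnitine palmitoyltransferase, and of Etfb are uncertain as levels. Of their exon bases, 81.4% and 58.2% are shared on the same strand with another annotated gene, Gm44502 and Gm45233, both at 0 CPM in every mouse, and read pairs that fall on several genes were not counted.

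In males, corticosterone raised 1 of the 34 genes and lowered 3, and in females it raised 4 and lowered 0. In males, Pnpla2 rose and Slc27a4, Acads and Hadh fell. In females, Pnpla2, Cd36, Lipe and Slc27a4 rose. Calls were made at an adjusted p under 0.01 in edgeR's quasi-likelihood test over all 13049 genes. Among all genes tested in males, 13.2% were called higher and 13.1% lower, against 2.94% and 8.82% of the 34 genes. In females the shares of all genes were 7.40% higher and 6.0% lower, against 11.8% and 0% here. For the count of 0 in females, 2 genes (Acsl4 and Acsl6) had an unadjusted p under 0.05, and DESeq2 and limma-voom also called 0. In the other directions, DESeq2 called 2 higher and 3 lower in males and 6 higher in females, and limma-voom called 1, 3 and 4.

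**Figure D1:**
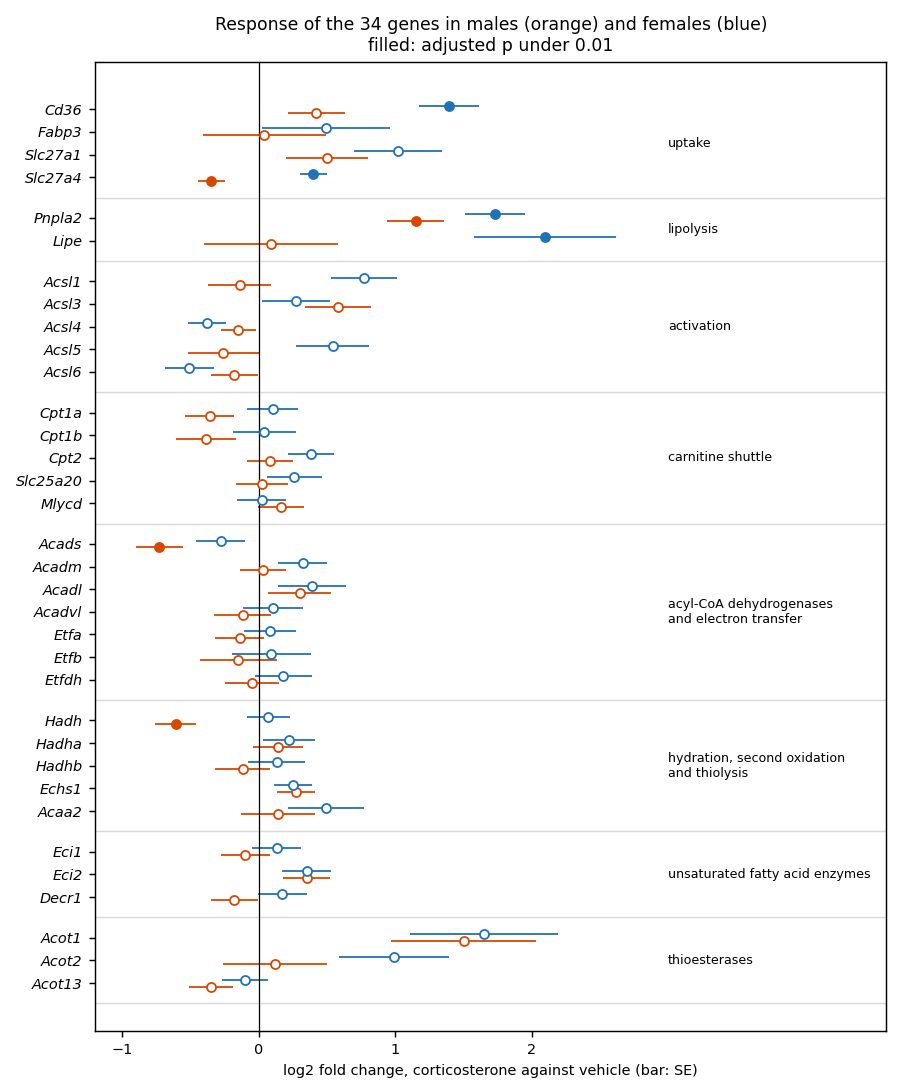
The log2 fold change of each of the 34 genes with corticosterone, with its SE as a bar, in males (orange) and females (blue), grouped by role and filled where the adjusted p was under 0.01. The filled points are the lipases, Cd36 and Slc27a4 in females and Pnpla2, Slc27a4, Acads and Hadh in males, while the genes of the carnitine shuttle have open points within 0.39 of 0.

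The upstream sequences of 4 of the genes that were called are shown because they are the stretches next to which a hormone-responsive factor could be looked for. They come from RefSeq on GRCm38.p6, where 30 of the 34 genes had a window, with 36 windows in all, and the bases before the start of transcription are printed 5′ to 3′. Capitals mark matches, on either strand, to ACANNNTGT, the core of the palindrome that the glucocorticoid receptor binds, and to GTAAACA, the site of FoxO factors. In Lipe these matches overlap. The Lipe stretch lies before a RefSeq start inside the gene, whose annotated 5′ end is at 25398710.
Pnpla2, chr7:141454938-141455187, plus strand: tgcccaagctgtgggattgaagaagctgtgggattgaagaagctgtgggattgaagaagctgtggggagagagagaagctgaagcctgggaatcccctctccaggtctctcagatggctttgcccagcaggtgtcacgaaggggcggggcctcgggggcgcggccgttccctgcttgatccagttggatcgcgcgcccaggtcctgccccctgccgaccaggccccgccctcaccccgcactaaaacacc
Slc27a4, chr2:29802384-29802633, plus strand: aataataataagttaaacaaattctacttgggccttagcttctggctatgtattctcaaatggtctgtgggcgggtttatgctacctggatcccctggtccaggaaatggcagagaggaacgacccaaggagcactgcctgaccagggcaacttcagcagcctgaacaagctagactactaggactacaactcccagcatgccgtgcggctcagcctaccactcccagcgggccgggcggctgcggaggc
Lipe, chr7:25390113-25390351, minus strand: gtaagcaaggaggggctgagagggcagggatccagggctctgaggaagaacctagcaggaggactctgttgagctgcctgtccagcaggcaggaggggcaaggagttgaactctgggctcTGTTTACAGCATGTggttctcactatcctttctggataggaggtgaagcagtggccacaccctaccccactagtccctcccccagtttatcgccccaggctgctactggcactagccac
Hadh, chr3:131272102-131272351, minus strand: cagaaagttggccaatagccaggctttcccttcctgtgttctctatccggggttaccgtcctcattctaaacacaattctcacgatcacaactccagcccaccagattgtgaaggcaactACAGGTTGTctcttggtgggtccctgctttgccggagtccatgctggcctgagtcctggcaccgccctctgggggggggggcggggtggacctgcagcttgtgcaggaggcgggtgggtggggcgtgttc

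The whole palindrome of the receptor was found in 0.00913% of 32851 windows and in 0 of the 30 genes with a window, and its core in 6.85% of windows and in 4 of the genes (Acot1, Acsl6, Hadh and Lipe). The FoxO letters were in 3.65% of windows and in Lipe, the E-box CACGTG in 7.15% and in Lipe and Slc27a1, and the direct repeat bound by PPAR factors in 0.0396% and in 0 of the 30. Of the stretches printed, those of Pnpla2 and Slc27a4 held none of the motifs searched, and those of Hadh and Lipe held the core. The E-box of Lipe lay in another window of that gene, which is not printed. These are matches of letters, and binding was not measured.

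Pnpla2 (ENSMUSG00000025509, chromosome 7, 141455198 to 141460743, plus strand) encodes the lipase that takes the first fatty acid off stored triglyceride. In vehicle-treated females it lay at 141 to 345 CPM with a median of 251, and in the corticosterone-treated females at 771.5, 760, 1219, 575 and 828 CPM (mice F2, F4, F6, F8 and F10, in this order wherever 5 values are given). In males it lay at 187 to 350 CPM with a median of 308 under vehicle and at 502 to 831.5 CPM with a median of 610.1 under corticosterone. In both sexes every corticosterone-treated mouse was above every vehicle-treated mouse. Such a full separation upward held for 1 of the 34 genes in males, against 10.8% of all genes tested, and for 2 of the 34 in females, against 3.38%. The rise was 2.21-fold in males (log2FC 1.15, SE 0.21, edgeR adjusted p = 0.000195) and 3.32-fold in females (log2FC 1.73, SE 0.22, edgeR adjusted p = 1.82e-05). The difference between the sexes, male minus female, was -0.58 (SE 0.30, edgeR adjusted p = 0.181) and did not pass.

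Lipe (ENSMUSG00000003123, chromosome 7, 25379527 to 25398710, minus strand) encodes hormone-sensitive lipase, which takes the next fatty acid off and is abundant in fat cells. Vehicle-treated females had 21.5 to 108 CPM with a median of 49.4. The corticosterone-treated females had 285, 94.9, 532, 35.9 and 270.2 CPM. F2, F6 and F10 were above all vehicle-treated females, and F4 and F8 lay within their range. In males the gene lay at 20 to 71.7 CPM under vehicle and at 33.3 to 91.2 CPM under corticosterone, and the groups overlapped. The female rise was 4.27-fold (log2FC 2.10, SE 0.52, edgeR adjusted p = 0.00552), while males gave a log2FC of 0.09 (SE 0.49, edgeR adjusted p = 0.905). The test of the difference between the sexes gave -2.01 (SE 0.71, edgeR adjusted p = 0.0631). The female call was lost without F1, F7, F9, F11, F2, F6 or F10, with edgeR adjusted p of 0.0104 to 0.0347, and the log2FC without F6 was 1.57. Without both M8 and F10 it was 2.02 (edgeR adjusted p = 0.0159), and without all 5 mice with hepatocyte markers it was 1.26 (edgeR adjusted p = 0.159).

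Lipe moved with the markers of adipocytes. The 12 markers, among them Adipoq (adiponectin), Plin1 and Lep (leptin), summed to 307 to 2850 CPM in vehicle-treated females and to 4664, 1148, 8175, 314 and 4011 CPM. In males the sums were 241 to 1072 CPM under vehicle and 335 to 1098 CPM under corticosterone. Of the 12 markers, 2 were called higher in females (Thrsp and Lep), against 7.40% of all genes tested, and 0 in males, against 13.2%. In females 10 had an unadjusted p under 0.05. There 11 of the 12 had a log2FC above 0, while 45.3% of all genes lay below 0. Adipoq was 626 CPM in F6 and 5.95 CPM in F8, the corticosterone-treated females with the highest and the lowest Lipe. With the adipocyte score as a covariate, the female log2FC of Lipe was 0.58 (edgeR adjusted p = 0.0104). The summed markers had a median of 876 CPM in vehicle-treated and 4011 CPM in corticosterone-treated females, so this fit cannot separate markers from treatment. The part of fat cells in the rise of Lipe was not tested.

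**Figure D2:**
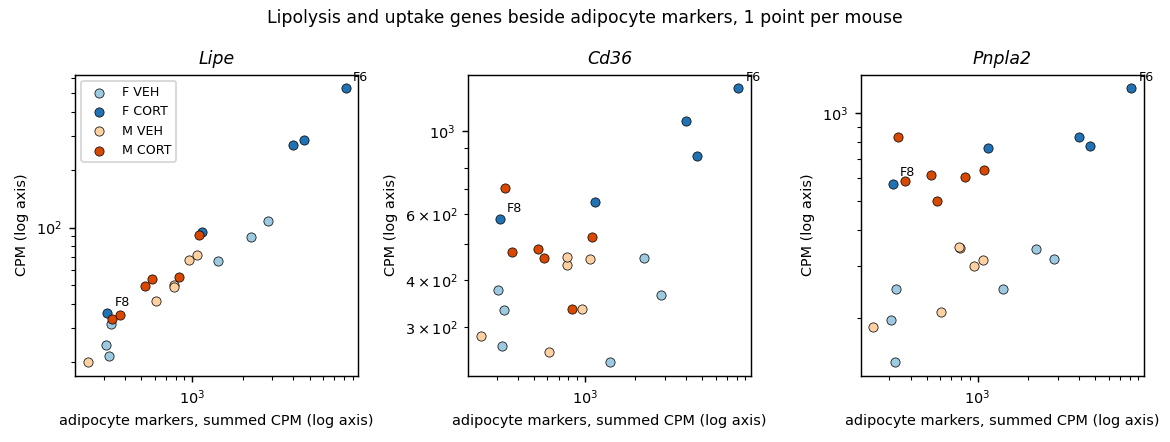
CPM of Lipe, Cd36 and Pnpla2 in each of the 23 mice against the summed CPM of 12 adipocyte markers, both on log axes, with F6 (8175 CPM of markers) and F8 (314 CPM) named. Lipe follows the markers through all 4 groups. Of the corticosterone-treated females, F6 has the highest and F8 the lowest value of each gene and of the markers. In F8, Pnpla2 and Cd36 are above the vehicle-treated females, and Lipe (35.9 CPM) and the markers are not.

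Cd36 (ENSMUSG00000002944, chromosome 5, 17781690 to 17888801, minus strand) encodes the fatty acid translocase of muscle, fat and vessel cells. Vehicle-treated females had 242 to 458 CPM with a median of 349, and the corticosterone-treated females had 860.0, 648, 1304, 583 and 1069 CPM. The female groups did not overlap. Males had 257 to 463 CPM under vehicle with a median of 387, and 336 to 706.5 CPM under corticosterone with a median of 480.0, and these groups overlapped. The female rise was 2.62-fold (log2FC 1.39, SE 0.22, edgeR adjusted p = 0.000165), against a male log2FC of 0.42 (SE 0.21, edgeR adjusted p = 0.121) and a difference of -0.97 (SE 0.30, edgeR adjusted p = 0.0408) that did not pass. Of the corticosterone-treated females, F6 had the most Cd36 and Pnpla2 and the highest sum of adipocyte markers (8175 CPM). F8 had the least of both genes and the lowest sum (314 CPM). F8 had more Cd36 and Pnpla2 than any vehicle-treated female. With the adipocyte score as a covariate both genes were called in females. Since the markers also differed between the female groups, this fit cannot separate them from the treatment. The part of fat cells in these rises was not tested. Summed endothelial markers were 314 to 664 CPM in vehicle-treated and 421 to 585 CPM in corticosterone-treated females. Summed markers of macrophages, which also express Cd36, were 122 to 264 CPM in vehicle-treated females and 271, 258, 381, 158 and 492 CPM in the corticosterone-treated females. All 9 had a female log2FC above 0 (median 0.95), while 45.3% of all genes tested lay below 0, and 6 had an unadjusted p under 0.05. In females edgeR called 0, against 7.40% higher and 6.0% lower of all genes, DESeq2 called 4 and limma-voom 2. In males 8 of the 9 were below 0, against 51.9% of all genes. The part of macrophages in the rise of Cd36 was not tested.

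Slc27a4 (ENSMUSG00000059316, chromosome 2, 29802634 to 29817522, plus strand) encodes the transport protein FATP4, which also has acyl-CoA synthetase activity. It fell in males and rose in females. Males had 12.1 to 14.7 CPM under vehicle with a median of 13.4, and 9.63 to 12.1 CPM under corticosterone with a median of 10.2. All corticosterone-treated males were below all vehicle-treated males, which held for 1 of the 34 genes, against 11.1% of all genes tested. Vehicle-treated females had 11.1 to 16.3 CPM, and the corticosterone-treated females had 17.1, 14.7, 20.9, 16.4 and 20.8 CPM. F4 lay within the vehicle range and the other 4 above it. In females, full separation downward held for 0 of the 34 genes, against 4.34% of all genes tested. The changes were small, a log2FC of -0.35 in males (SE 0.10, 1.27-fold, edgeR adjusted p = 0.00841) and of 0.40 in females (SE 0.10, 1.32-fold, edgeR adjusted p = 0.00657).

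Slc27a4 was the 1 gene of the 34 whose response differed between the sexes, at -0.75 (SE 0.14, edgeR adjusted p = 0.00806), against 0.690% of all genes tested. Its calls lie close to the threshold. The male call was lost without F11, F2, M1, M3, M5, M9, M11, M4, M6, M8, M10 or M12 (edgeR adjusted p of 0.0103 to 0.0215). The female call was lost without F1, F7, F9, F11, F2, F6 or F10 (edgeR adjusted p of 0.0113 to 0.0369), and with the adipocyte score as a covariate (log2FC 0.27, edgeR adjusted p = 0.0778). The difference between the sexes stayed past the threshold when F3, F5, F4, F8 or M2 was left out, and without any of the other 18 mice it ranged from -0.67 to -0.78 with edgeR adjusted p of 0.010 to 0.0210. Without both M8 and F10 the log2FC was -0.36 in males (edgeR adjusted p = 0.0111) and 0.32 in females (edgeR adjusted p = 0.0385), and the difference was -0.68 (edgeR adjusted p = 0.0307). Without all 5 mice with hepatocyte markers these were -0.35, 0.23 and -0.58 (edgeR adjusted p of 0.0229, 0.233 and 0.106).

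The other uptake genes did not pass in either sex in edgeR, while DESeq2 called Slc27a1 higher in females (log2FC 1.0, DESeq2 adjusted p = 0.00746) and so did edgeR with the slow fiber score as a covariate. Slc27a1, the transport protein FATP1 of muscle and fat, had 54.0 to 177 CPM in vehicle-treated females and 212, 174, 339, 164.5 and 258 CPM (log2FC 1.02, SE 0.32, edgeR adjusted p = 0.0214). In males its log2FC was 0.50 (SE 0.30, edgeR adjusted p = 0.199). Fabp3 varied widely within every group, from 129 to 1131 CPM among corticosterone-treated males alone, with a log2FC of 0.04 in males and 0.49 in females and an SE of 0.45 and 0.47.

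**Figure D3:**
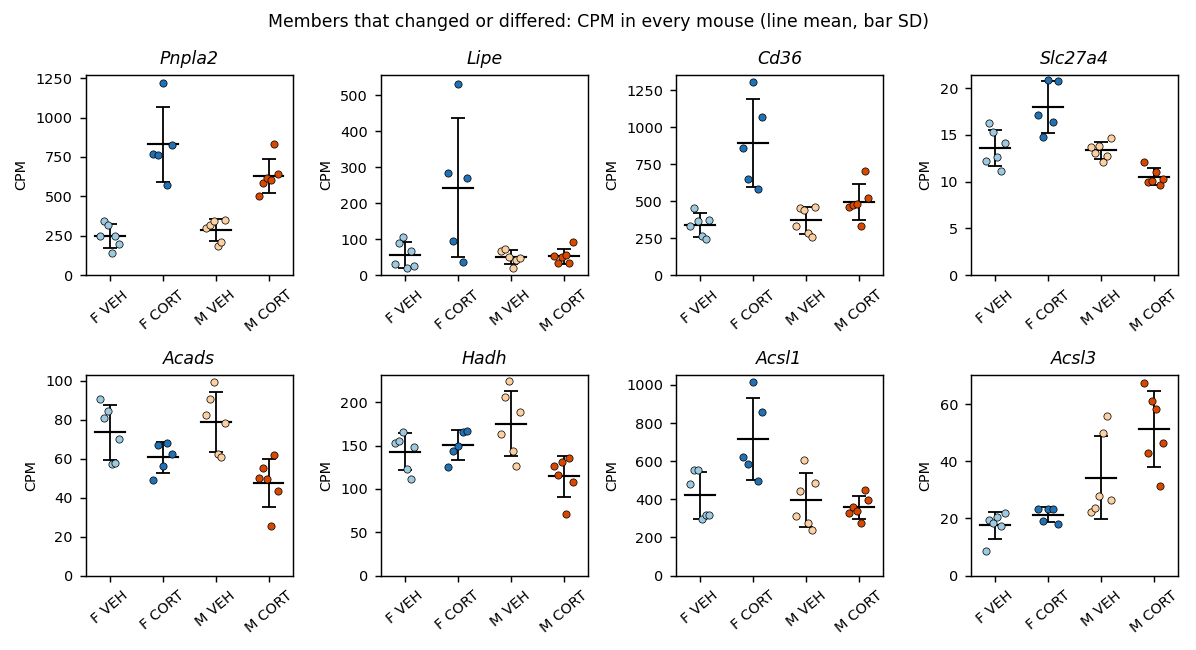
CPM of 8 of the genes in every mouse of the 4 groups (F female, M male, VEH vehicle, CORT corticosterone), with the mean as a line and the SD as a bar. Pnpla2 separates the treatments in both sexes, Cd36 in females, and Slc27a4 in males, while the corticosterone-treated females spread from 35.9 to 532 CPM for Lipe.

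Acyl-CoA synthetases trap fatty acids in the cell by joining them to coenzyme A. Of their 5 genes, 0 were called in edgeR in males, against 13.2% higher and 13.1% lower of all genes tested. In females 0 were called in edgeR, against 7.40% and 6.0%. At an unadjusted p under 0.05, 1 was higher in males, and 1 was higher and 2 were lower in females, and DESeq2 called 1 higher in females. Acsl1, the main form of muscle, fat and liver, had 297 to 555 CPM in vehicle-treated females and 619.5, 588, 1014, 497 and 858 CPM (log2FC 0.77, SE 0.24, edgeR adjusted p = 0.0210). Without F8 it was called, with an edgeR adjusted p of 0.00999. In males its log2FC was -0.14 (SE 0.23). The female log2FC was 0.54 for Acsl5 (SE 0.27), -0.38 for Acsl4 (SE 0.14, edgeR adjusted p = 0.0449) and -0.51 for Acsl6 (SE 0.18, edgeR adjusted p = 0.0431), and without F4 Acsl6 was called lower (edgeR adjusted p = 0.00765). Acsl3 had a log2FC of 0.58 in males (SE 0.24, edgeR adjusted p = 0.0568) and of 0.27 in females (SE 0.25).

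The carnitine shuttle is the step that sets how fast fatty acids enter the mitochondrion. Of its 5 genes, 0 were called in males, against 13.2% higher and 13.1% lower of all genes tested. In females 0 were called, against 7.40% and 6.0%. With so few genes, 0 calls lie near these shares and do not show that the shuttle was unaffected. DESeq2 and limma-voom also called 0, and 1 gene had an unadjusted p under 0.05 (Cpt2, in females). The log2FC of the 5 genes ran from -0.39 (Cpt1b) to 0.16 (Mlycd) in males and from 0.02 (Mlycd) to 0.38 (Cpt2) in females. Cpt1a, the form best known from liver, had a log2FC of -0.36 in males (SE 0.18, edgeR adjusted p = 0.125) and 0.10 in females (SE 0.19). Slc25a20, the carrier of acylcarnitines across the inner membrane, had 0.02 in males and 0.26 in females.

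Of the 7 genes for the dehydrogenase and electron transfer step, 1 fell in males, against 13.1% of all genes tested. In females 0 were called, against 7.40% higher and 6.0% lower of all genes. There 0 of the 7 had an unadjusted p under 0.05 in edgeR, and DESeq2 and limma-voom called 0. Acads (ENSMUSG00000029545, chromosome 5, 115110299 to 115119346, minus strand) encodes the short-chain acyl-CoA dehydrogenase. It lay at 60.7 to 99.2 CPM in vehicle-treated males with a median of 80.2, and at 25.3 to 61.6 CPM in corticosterone-treated males with a median of 49.8. The groups overlapped only between the highest corticosterone-treated and the lowest vehicle-treated males. Its male log2FC was -0.73 (SE 0.17, 1.66-fold, edgeR adjusted p = 0.00191). Vehicle-treated females had 57.1 to 90.4 CPM, and the corticosterone-treated females 68.0 at most and 49.2 at least (log2FC -0.28, SE 0.18, edgeR adjusted p = 0.267). The dehydrogenases for longer chains gave other values, with a male log2FC of 0.03 for Acadm, 0.30 for Acadl and -0.12 for Acadvl, and a female log2FC of 0.32, 0.39 and 0.10. Etfa, Etfb and Etfdh, which pass the electrons to the respiratory chain, lay between -0.15 and -0.05 in males and between 0.08 and 0.18 in females.

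Of the 5 genes for the later steps of the spiral, 1 fell in males, against 13.1% of all genes tested. In females 0 were called, against 7.40% higher and 6.0% lower of all genes. Again 0 of the 5 had an unadjusted p under 0.05 in females in edgeR, and DESeq2 and limma-voom called 0. Hadh (ENSMUSG00000027984, chromosome 3, 131233419 to 131272101, minus strand) encodes the dehydrogenase that oxidises medium and short hydroxyacyl-CoA. Males had 126 to 224 CPM under vehicle with a median of 176, and 70.9 to 136 CPM under corticosterone with a median of 121. The groups overlapped at the edge, and 6 of 6 corticosterone-treated males were below the vehicle mean. The male log2FC was -0.61 (SE 0.15, 1.53-fold, edgeR adjusted p = 0.00279). With each sex fitted alone the call was lost (log2FC -0.60, edgeR adjusted p = 0.0125). Females had 112 to 166 CPM under vehicle and 125 to 167 CPM under corticosterone (log2FC 0.07, SE 0.16, edgeR adjusted p = 0.769), and the difference between the sexes was -0.69 (SE 0.22, edgeR adjusted p = 0.0428). Hadha and Hadhb, the subunits of the trifunctional protein for long chains, had a male log2FC of 0.14 and -0.12 and a female log2FC of 0.22 and 0.13. Echs1 had 0.27 and 0.25, and the thiolase gene Acaa2 had 0.14 in males and 0.49 in females (SE 0.28).

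Eci1, Eci2 and Decr1 prepare the double bonds of unsaturated fatty acids for oxidation. In edgeR 0 of the 3 were called in males, against 13.2% higher and 13.1% lower of all genes tested. In females 0 were called, against 7.40% and 6.0%. DESeq2 and limma-voom also called 0, and 0 had an unadjusted p under 0.05 in edgeR. The log2FC was -0.10, 0.35 and -0.18 in males and 0.13, 0.35 and 0.17 in females. The thioesterases release fatty acids from coenzyme A again. In edgeR 0 of these 3 were called, against the same shares of all genes. At an unadjusted p under 0.05, 1 was higher and 1 lower in males and 2 were higher in females. DESeq2 called 1, higher in males. Acot1 had 0.473 to 5.44 CPM in vehicle-treated females and 3.68 to 11.9 CPM in corticosterone-treated females (log2FC 1.65, SE 0.54, edgeR adjusted p = 0.0286). In males it had 0.982 to 5.68 CPM and 2.7 to 15 CPM (log2FC 1.5, SE 0.53, edgeR adjusted p = 0.0270). Its neighbour Acot2 had a female log2FC of 0.99 (SE 0.40, edgeR adjusted p = 0.0704), with F4 at 149.9 CPM and the other 4 at 28.8 to 38.8 CPM. Acot1 and Acot2 share part of their sequence (12.4% and 17.1% of 100-base words occur in other genes), so that reads may have been lost or split between them. Acot13 had a log2FC of -0.35 in males and -0.10 in females.

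Taking the 23 genes from the carnitine shuttle onward, the median log2FC was -0.05 in males and 0.17 in females, against -0.02 and 0.04 over all genes tested. In females 2 of the 23 lay below 0, against 45.3% of all genes tested, and in males 12 of the 23 did, against 51.9%. For the 11 genes of uptake, lipolysis and activation the medians were 0.04 in males and 0.54 in females. Over the 34 genes together the median was -0.01 in males and 0.26 in females, and the male minus female difference was below 0 for 28 of the 34, against 54.2% of all genes tested. Of these differences 6 had an unadjusted p under 0.05 and 1 passed.

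The 23 oxidation genes varied together from mouse to mouse within each group. Against the vehicle mean of the same sex, 23 of 23 were higher in M11 and 0 of 23 in M7, both vehicle-treated males. For each mouse, the median of their log2 differences from the vehicle mean of its own sex ran from -0.46 (M9) to 0.49 (M5) among vehicle-treated males and from -0.66 (M8) to 0.49 (M10) among corticosterone-treated males. In females it ran from -0.34 (F9) to 0.22 (F5) under vehicle and from -0.16 (F6) to 0.51 (F8) under corticosterone. The groups overlapped in both sexes. Myh2, the myosin of the oxidative type 2A fibers, was lowest in M9 (18.2 CPM), M8 (22.0 CPM) and F9 (30.4 CPM), the same mice with the lowest oxidation medians, and highest in F8 (4622 CPM). Summed markers of slow fibers ran from 69.2 CPM in F9 and 70.0 CPM in M8 to 6559 CPM in F3. Of these 10 markers, 0 were called in either sex in edgeR, DESeq2 or limma-voom. The edgeR shares of all genes were 13.2% higher and 13.1% lower in males and 7.40% and 6.0% in females. In each sex 1 of the 10 had an unadjusted p under 0.05. With Myh2 as a covariate, chosen after seeing the data, Hadh joined Slc27a4 among the genes whose response differed between the sexes, and Acads was called lower in females. Apart from this covariate, the part of fiber types in these values was not tested.

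**Figure D4:**
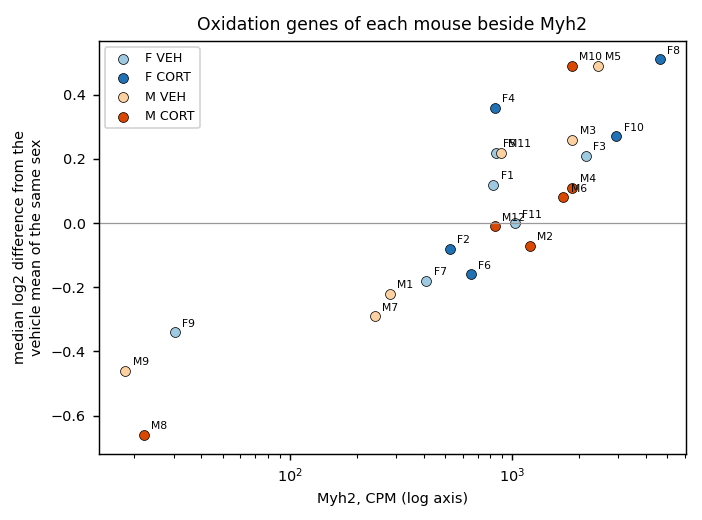
For each of the 23 mice, the median log2 difference of the 23 oxidation genes from the vehicle mean of the same sex, against the CPM of Myh2 on a log axis. M8 (-0.66) and M9 (-0.46) have the lowest Myh2 and the lowest medians, and F8 (0.51) has the highest of both, with corticosterone-treated and vehicle-treated mice mixed along the cloud.

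Between vehicle-treated males and females 0 of the 34 genes were called, which is near the 0.958% of all genes tested. The SE of this log2FC reached 0.53 (Acot1), so that the lack of calls does not show equal levels. Only Acsl3 had an unadjusted p under 0.05, with a log2FC of 0.95 in males against females (SE 0.24, edgeR adjusted p = 0.0338), and it was the 1 gene that DESeq2 called, while limma-voom called 0.

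Between corticosterone-treated males and females, 2 of the 34 were higher in males (Acsl3 and Acsl6), or 5.88% against 9.31% of all genes tested, and 4 were lower in males (Lipe, Acsl1, Cd36 and Slc27a4), or 11.8% against 14%. Acsl3, which activates fatty acids at lipid droplets and the endoplasmic reticulum, had 17.9 to 23.4 CPM in the females and 31.5 to 67.3 CPM in the males (log2FC 1.26, SE 0.26, edgeR adjusted p = 0.000893). Slc27a4 was at 14.7 CPM or more in the females and 12.1 CPM or less in the males (log2FC -0.77, SE 0.10, edgeR adjusted p = 4.01e-05). The log2FC was -2.20 for Lipe (SE 0.52, edgeR adjusted p = 0.00269), -1.0 for Acsl1 (SE 0.24, edgeR adjusted p = 0.00273), -0.84 for Cd36 (SE 0.22, edgeR adjusted p = 0.00493) and 0.64 for Acsl6 (SE 0.18, edgeR adjusted p = 0.00914). Without F6 the 6 calls came down to 2 and without F10 to 3, and without both M8 and F10 to 2. Acsl3 and Slc27a4 were called each time. Without all 5 mice with hepatocyte markers 1 remained, Slc27a4. With the adipocyte score as a covariate 3 remained, Acsl3, Lipe and Slc27a4.

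The next list held 14 genes for PPAR and ERR factors and their partners, which switch on fatty acid oxidation genes. In males 4 rose and 2 fell, against 13.2% and 13.1% of all genes tested. In females 0 were called in edgeR, against 7.40% higher and 6.0% lower of all genes. There 4 were higher and 2 lower at an unadjusted p under 0.05, and DESeq2 and limma-voom called 1 each. Klf15, a glucocorticoid-responsive factor of muscle lipid use, rose most in males (log2FC 1.18, SE 0.14, edgeR adjusted p = 1.17e-06), against 0.34 in females (SE 0.14, edgeR adjusted p = 0.0774) and a difference of 0.84 (edgeR adjusted p = 0.0160). Ppard rose in males (log2FC 0.36, SE 0.10, edgeR adjusted p = 0.00688), Esrra fell (log2FC -0.65, SE 0.16, edgeR adjusted p = 0.00241), and Ppargc1b, a coactivator of both families, fell most (log2FC -0.95, SE 0.28, edgeR adjusted p = 0.00986). Ppara gave -0.10 in males and 0.28 in females, and Ppargc1a -0.36 and -0.27, with no call.

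Of 16 genes around the lipid droplet, 3 rose in males and 7 in females, against 13.2% and 7.40% of all genes tested, with a median log2FC of -0.04 and 1.02. Plin5, which sits between droplets and mitochondria in oxidative tissue, rose most in males (log2FC 1.57, SE 0.39, edgeR adjusted p = 0.00265) and had 1.5 in females (SE 0.40, edgeR adjusted p = 0.00821). In females Dgat2, the enzyme of the last step of triglyceride synthesis, rose most (log2FC 2.62, SE 0.54, edgeR adjusted p = 0.00148), and so did G0s2, the inhibitor of the lipase encoded by Pnpla2, by a log2FC of 2.16 (SE 0.35, edgeR adjusted p = 0.000173). The latter gene was named after its value was seen. Adipocytes also express many of these genes, and their markers in F2, F6 and F10 stood as given above.

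Among 7 tested genes of malonyl-CoA and carnitine supply, 1 rose in males and 3 in females, against 13.2% and 7.40% of all genes tested. Acacb, the acetyl-CoA carboxylase whose product holds back the carnitine shuttle in muscle, rose in males (log2FC 0.70, SE 0.10, edgeR adjusted p = 1.29e-05) and in females (log2FC 0.46, SE 0.10, edgeR adjusted p = 0.00284). The largest rise in females was that of Acaca, the lipogenic form (log2FC 2.79, SE 0.72, edgeR adjusted p = 0.00661), with 3 of 5 corticosterone-treated females above the vehicle mean. The adipocyte markers of these females were given with Lipe. Of 18 tested peroxisomal genes, 4 fell in males and 1 fell in females, against 13.1% and 6.0% of all genes tested. Pecr fell most in females (log2FC -0.55, SE 0.11, edgeR adjusted p = 0.00125), and Phyh, of phytanic acid oxidation, fell most in males (log2FC -0.58, SE 0.16, edgeR adjusted p = 0.00590).

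Of 26 further tested genes of uptake, activation and mitochondrial oxidation, 2 rose and 2 fell in males and 4 rose in females, against 13.2%, 13.1% and 7.40% of all genes tested. Acot9, a mitochondrial thioesterase, rose most in males (log2FC 0.84, SE 0.12, edgeR adjusted p = 7.99e-06), and Acot7 fell most (log2FC -0.92, SE 0.19, edgeR adjusted p = 0.000549). In females Acss3 rose most (log2FC 1.90, SE 0.44, edgeR adjusted p = 0.00368). Of 6 ketone body genes, 1 fell in males, against 13.1% of all genes tested. It was Oxct1, the enzyme by which muscle uses ketone bodies (log2FC -1.04, SE 0.23, edgeR adjusted p = 0.00132). In females 0 were called in edgeR, against 7.40% higher and 6.0% lower of all genes. There 1 had an unadjusted p under 0.05, and DESeq2 called 1. The citric acid cycle takes up the acetyl-CoA made by beta oxidation. Of its 18 genes, 0 were called in edgeR in males, against 13.2% higher and 13.1% lower of all genes tested. In females 0 were called in edgeR, against 7.40% and 6.0%. The median log2FC was -0.30 in males and -0.15 in females. In each sex 16 of 18 lay below 0, against 51.9% of all genes in males and 45.3% in females. At an unadjusted p under 0.05, 1 was higher and 11 were lower in males and 1 was lower in females. In males DESeq2 called 1 lower, and limma-voom called 1 higher and 2 lower.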

How the data were processed

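RNA of quadriceps from 23 mice was sequenced as stranded mRNA libraries of paired reads. The authors aligned the reads to mm10 with STAR 2.7.3a, used HTSeq 0.12.4 in its strand-specific mode to count the pairs that could be placed on a single gene of Ensembl 97, and deposited these raw counts. Library sizes and tests here leave out the 10.7% to 15.3% of read pairs per mouse that were assigned to no gene.

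The labels gave the sex and treatment of every mouse. The counts were tested in R 4.3.3 with the quasi-likelihood test of edgeR 4.0.16 (TMM) in 1 model of the 4 groups, for genes that exceeded 20 normalized counts in 4 or more mice of any group, which is the study's filter. P-values were adjusted over 13049 genes by the Benjamini-Hochberg method with a threshold of 0.01. The SE of a log2FC was derived from the same test, as the size of the log2FC divided by the square root of the F statistic. It is therefore not a measure of spread independent of the p-value. The test recovered changed genes in data simulated for the same design with independent noise. There 200 genes were changed, in males only, by more than the changes called here in Slc27a4, Acads and Hadh. Recovery of changes as small as these was not simulated. CPM values are TMM-scaled, and RPKM values use exon lengths of GENCODE M21 (GRCm38). Marker scores are means of log2 CPM over the genes of a list. The motif search covered both strands of RefSeq windows around gene starts.

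The genes, lists and alternatives were chosen with earlier results of these data known. Values are given for the genes called in either sex or between the sexes, and of the other lists for the largest rise and fall in each sex among called genes, besides Ppargc1a, Ppara, Ppard and Esrra. Some other genes are named where their values bear on these. A gene under this rule is not reported here. The alternatives were DESeq2 1.42.0, limma-voom (limma 3.58.1) with sample quality weights, the median of ratios, edgeR's filterByExpr, no filter, each sex alone, a limit of 1 on the log2FC, covariates for adipocyte, slow fiber and Myh2 levels, M8 and F10 left out, a block on the replicate number, and each mouse left out in turn. The Myh2 covariate, and leaving out the 5 mice with the highest hepatocyte markers, were added after seeing the data. Labels name each mouse as a separate sample, and all pairs of replicates differed beyond sampling noise (lowest chi-square per degree of freedom 15.2).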

Additional observations from a re-analysis of the deposited data

Results flagged for a closer look

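In 136 groups of 5 or 6 values, 4 held a mouse that stood apart from the rest by Dixon's test, and chance alone gives about 6.8, or 1 in 20 groups. Acsl3 was 8.588 CPM in F1, against 17.4 to 21.84 CPM in the other vehicle-treated females. In the corticosterone-treated female F4, Eci2 was 132.3 CPM, against 64.57 to 78.29 CPM in the other 4, and Acot2 was 149.9 CPM, against 28.77 to 38.75 CPM. Acot13 was 69.82 CPM in F9, against 80.82 to 85.64 CPM in the other vehicle-treated females. F9 was also the female with the lowest Myh2 (30.4 CPM).

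Slc27a4 was the gene whose response differed between the sexes by the test of the interaction, with a male minus female log2 fold change of -0.75 (edgeR adjusted p = 0.00806).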

How the results depend on the processing

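Pnpla2 in both sexes, Cd36 in females and Acads in males were called in each of the 34 alternatives that gave them a value. The limit of 1 on the log2FC is counted apart from these, and Acads did not pass it. No called value changed its direction. Without the 5 mice with hepatocyte markers (M8, M9, M12, F6 and F10), the 4 genes called higher in females became 2, the 1 with a difference between the sexes became 0, and the 6 between corticosterone-treated males and females became 1. In males, the count of genes called higher was 1 and became 2 with DESeq2 and 3 with the slow fiber covariate, and the 3 called lower became 0 with a limit of 1 on the log2FC and lost Hadh with each sex fitted alone. In females, the 4 called higher became 2 with each sex fitted alone, 2 without M8 and F10 and 2 with the adipocyte covariate, and the 0 called lower became 1 with the Myh2 covariate. The 1 gene with a difference between the sexes became 0 with no filter, 0 without M8 and F10, 0 with the adipocyte covariate and 2 with the Myh2 covariate. Between vehicle-treated males and females DESeq2 called 1, and between corticosterone-treated ones the 6 became 2 without M8 and F10 and 3 with the adipocyte covariate. The cause was not tested.

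Each mouse left out in turn gave 1 to 1 gene higher and 2 to 3 lower in males, 2 to 5 higher and 0 to 1 lower in females, 0 to 1 for the difference between the sexes, 0 to 0 between vehicle-treated and 2 to 8 between corticosterone-treated males and females. Without F8 these last were 8 genes, and the female count was 5. Over all genes, the calls of the interaction were 48 higher and 42 lower, and 422 and 474 with DESeq2, 188 and 505 with limma-voom, 8 and 2 with no filter, and 1 and 0 with the adipocyte covariate.

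Males and females share replicate numbers. Correlations of same-numbered mice ran from 0.08 to 0.48 for the vehicle numbers and from -0.38 to 0.24 for the corticosterone numbers. The labels do not say whether same-numbered mice share more than a number, and this was not tested. With the replicate block, the 1 gene of the interaction became 0, and the calls between vehicle-treated (0) and corticosterone-treated (5) males and females were close to those without it. The block could not be fitted to the treatment within a sex, since vehicle and corticosterone mice have different numbers. With 5 or 6 mice a group, the SE of a log2FC was between 0.10 and 0.54 for these genes, so that small changes of the variable ones could not be detected.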
